A study of Homo sapiens with 4 samples.

Results

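The solute carriers described here are the genes of the SLC and SLCO families whose level passed a minimum in single-cell RNA sequencing of 2 established human cell lines treated with estrogen. Ishikawa is an endometrial adenocarcinoma line and T-47D is a breast carcinoma line. Members were taken from the shared feature list by symbol (SLC or SLCO family names, without the adaptor genes SLC9A3R1 and SLC9A3R2) and were then selected on their measured level, a mean of at least 10 CPM (counts of transcripts per 1000000 in a pool of cells) over the 4 time points in at least 1 line. Of the 377 such symbols among 33538 features, 131 (34.7%) passed, against 26.6% of all features (8921 genes). Of the 131 members, 103 passed the minimum in Ishikawa and 101 in T-47D. In both lines 73 passed, 30 passed only in Ishikawa and 28 only in T-47D. The other 246 symbols stayed under the minimum in both lines, and 38 of them had no UMI in any pool of cells. A UMI (unique molecular identifier) marks 1 captured transcript.

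Because the level chose the members, their levels are given as a description. SLC41A2 (means of 10.1 CPM in Ishikawa and 10.0 CPM in T-47D), SLC12A4 (9.54 and 10.1 CPM) and SLC31A2 (2.31 and 10.3 CPM) lay just inside the minimum, and SLC25A22 (9.69 and 2.97 CPM), SLC38A6 (9.65 and 7.18 CPM) and SLC47A2 (9.31 and 0.0151 CPM) lay just outside it.

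Solute carriers are membrane proteins that move small molecules across the plasma membrane or the membranes of organelles, either down a gradient or coupled to the movement of an ion or a second solute. They set which amino acids, sugars, metals, vitamins and metabolites a cell takes up and releases, and the mitochondrial carriers of the SLC25 family exchange nucleotides, phosphate and metabolites across the inner mitochondrial membrane. Several amino acid carriers work only as pairs, in which a light chain of the SLC7 family that binds the substrate is joined to the heavy chain SLC3A2 (CD98), which brings the pair to the cell surface. Dividing cells, and tumor cells among them, draw on amino acid, glucose and nucleotide transport.

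Both lines were kept for 5 days in hormone-depleted medium and then given 10 nM of the estrogen 17β-estradiol (E2) for 2, 4 or 8 h, with a culture given the vehicle, DMSO, as 0 h. Each line and time point was 1 culture. The cells of the 4 cultures of a line were marked with MULTI-seq, in which a DNA tag held in the cell membrane names the source culture, and were run together as 1 droplet library per line, so line and library cannot be told apart. The kept cells numbered 776, 1480, 892 and 1465 at 0, 2, 4 and 8 h in the Ishikawa library, with 1525, 1207, 1341 and 553 in that of T-47D, and their summed UMIs per pool ran from 12927799 to 33175309. At 0 h 776 of 2032 called Ishikawa cells passed the filters on UMIs, detected genes and mitochondrial share, against 1480 of 2651, 892 of 1701 and 1465 of 2693 at 2, 4 and 8 h. The 2 libraries shared 80 cell barcodes, 5 of them among the kept cells of both lines. Ishikawa pools held 3.17% to 4.67% UMIs of a GFP reporter. The share of cells with a UMI of the proliferation genes TOP2A or MKI67 was 66.1% to 72.3% in Ishikawa and 31.7% to 41.6% in T-47D, where it was highest at 8 h. At 0 h all 9 luminal breast markers, GATA3 and PIP among them, were higher in T-47D, although ANKRD30A had only 2 UMIs there, and all 7 endometrial markers, PAX8 and SOX17 among them, were higher in Ishikawa. GATA3 and PIP had no UMI in Ishikawa, and PAX8, SOX17, EMX2 and HOXA10 had none in T-47D. Of 8 immune, endothelial and stromal markers PTPRC had no UMI in either line, COL1A1 had 443 UMIs in Ishikawa and 185 in T-47D, and the other 6 had at most 23 in a line.

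Levels are UMIs scaled to 1000000 UMIs of a pool. Over the time course they are listed in the order of 0, 2, 4 and 8 h, and changes against 0 h in the order of 2, 4 and 8 h. The library captures the end of each transcript next to its poly(A) tail, so the UMIs of a gene do not grow with transcript length, and levels of different genes are set side by side without division by length. Intervals of 95% are exact Poisson or exact binomial intervals and cover counting error alone, leaving out any variation between cultures. Without replicate cultures no test was made, and a difference is described by its size and its counting interval.

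At 0 h the 131 members together made up 5379 CPM in Ishikawa and 5087 CPM in T-47D. The mitochondrial phosphate carrier SLC25A3 was the highest member in both lines, with 749, 748, 751 and 713 CPM in Ishikawa and 794, 763, 783 and 749.9 CPM in T-47D. Its level lay between 713 and 794 CPM in every pool. The ADP/ATP carriers were also high. SLC25A5 had 395 CPM in Ishikawa and 179 CPM in T-47D at 0 h, SLC25A6 had 174 and 289 CPM, and SLC25A4 had 189 and 53.8 CPM. Thus SLC25A5 was the leading ADP/ATP carrier of Ishikawa and SLC25A6 that of T-47D. The heavy chain SLC3A2 (364 and 324 CPM) was among the 5 highest members of both lines at 0 h, and the iron exporter SLC40A1 (ferroportin) was among those of T-47D alone. The glutamine carrier SLC38A1 had 223 and 165 CPM.

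The members were grouped into substrate classes. The 26 mitochondrial carriers summed to 2254 CPM in Ishikawa and 1981 CPM in T-47D, and the 16 amino acid carriers to 1103 and 813 CPM. The 16 zinc carriers summed to 628 CPM in Ishikawa and 570.1 CPM in T-47D. The SLC35 family includes nucleotide sugar carriers of the Golgi and endoplasmic reticulum. Its 16 members summed to 381 CPM in Ishikawa and 373 CPM in T-47D. These 4 classes held most of the summed level in each line. Some of the smaller classes differed more between the lines. The 4 monocarboxylate carriers summed to 74.6 CPM in Ishikawa and 4.25 CPM in T-47D, 17.6-fold higher in Ishikawa. All 4 became members through Ishikawa alone, so the direction of this ratio is in part set by how members were chosen. The 7 carriers of other metals and haem summed to 111 CPM in Ishikawa and 465 CPM in T-47D, a ratio of Ishikawa to T-47D of 0.239. Most of this difference was SLC40A1, with 4.97 CPM in Ishikawa and 345 CPM in T-47D. SLC40A1 was over the minimum in T-47D alone. Sums of the 4 phosphate and sulfate carriers were 131 CPM in Ishikawa and 51.2 CPM in T-47D, a ratio of 2.56. The ratios of these 3 classes kept their direction when pools were scaled by TMM factors, at 14.2, 0.193 and 2.07. Those of the mitochondrial carriers (1.14), zinc carriers (1.102) and SLC35 members (1.02) turned to 0.918, 0.889 and 0.825, so no direction is given for them.

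**Figure D1:**
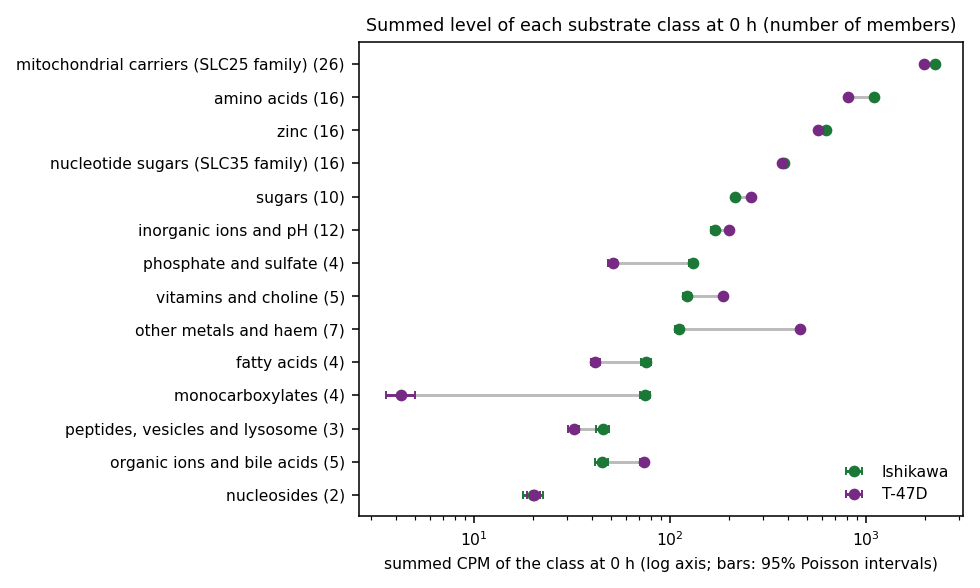
Summed level of the members of each substrate class at 0 h, in CPM on a log axis, for Ishikawa (green) and T-47D (purple), with 95% Poisson intervals as bars and the number of members in brackets. The lines lie close together for the large classes and farthest apart for the monocarboxylate carriers (74.6 against 4.25 CPM) and the carriers of other metals and haem (111 against 465 CPM). The latter gap is mostly SLC40A1 (4.97 against 345 CPM). The class of SLC49A3 alone is not drawn.

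The lines were compared gene by gene at 0 h on the scale log2((Ishikawa CPM + 1)/(T-47D CPM + 1)), with a difference called at 2-fold or more. Of the 131 members, 32 (24.4%) were higher in Ishikawa and 23 (17.6%) were higher in T-47D, beside 22.2% and 15.6% of all 8921 genes over the minimum in at least 1 line. These shares of the members were near the background. The split between the directions depended on the scaling, since TMM factors gave 22 and 33 members and median-of-ratios factors gave 22 and 30. The median difference of all genes was 0.19 on the log2 scale under scaling to total UMIs, -0.15 under TMM and -0.11 under median of ratios, and that of the members was 0.22, -0.08 and -0.04. At 8-fold or more, 7 members (5.34%) were higher in each line, beside 4.21% of all genes higher in Ishikawa and 3.15% higher in T-47D. Differences of that size are far larger than the shift between scalings. Each of these members was over the minimum only in the line where it was higher. The direction of their differences thus restates in part how members were chosen, as it does for any other member over the minimum in 1 line only.

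Amino acid carriers gave some of the largest contrasts. SLC7A11, the light chain of the cystine and glutamate exchanger xCT, had 58.3 CPM in Ishikawa (892 UMIs) and 0.904 CPM in T-47D (30 UMIs), 64.5-fold (95% interval 44.8 to 96.1) higher in Ishikawa. SLC7A1, a carrier of cationic amino acids that needs no heavy chain, had 52.01 and 3.71 CPM and was 14.03-fold (95% interval 11.6 to 17.1) higher in Ishikawa. SLC7A8 (LAT2), another light chain and a carrier of neutral amino acids, went the other way, with 5 UMIs (0.327 CPM) in Ishikawa and 1435 UMIs (43.3 CPM) in T-47D. It was 132-fold (95% interval 56.6 to 408) higher in T-47D. The heavy chain SLC3A2 (364 and 324 CPM) and the light chain SLC7A5 (LAT1, 89.2 and 75.96 CPM) were within 2-fold between the lines. Among the light chains over the minimum, SLC7A5 and SLC7A11 were thus the ones of Ishikawa, and SLC7A5, SLC7A8 and SLC7A6 (5.42 CPM in Ishikawa and 10.8 CPM in T-47D) those of T-47D. The glutamine carriers SLC1A5 (106 and 40.4 CPM, 2.63-fold (95% interval 2.45 to 2.83)) and SLC38A2 (128 and 61.9 CPM, 2.06-fold (95% interval 1.94 to 2.196)) were higher in Ishikawa. SLC38A2 lay just past 2-fold, by less than the shift between scalings, so its call depended on the scaling. The creatine carrier SLC6A8 (3.59 and 15.4 CPM) was 4.29-fold (95% interval 3.24 to 5.77) higher in T-47D. SLC6A14, a broad amino acid carrier, was under the minimum in both lines and is no member.

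The 4 monocarboxylate carriers were over the minimum in Ishikawa alone, and their direction restates that choice. SLC16A1 (MCT1), which carries lactate and pyruvate, had 530 UMIs (34.6 CPM) in Ishikawa and 11 UMIs (0.332 CPM) in T-47D, a difference of 104-fold (95% interval 57.9 to 210.5). The lactate exporter SLC16A3 (MCT4) had 16.3 and 3.26 CPM and was 5.02-fold (95% interval 3.99 to 6.35) higher. SLC16A7 (MCT2) and SLC16A10, a carrier of aromatic amino acids and thyroid hormones, each had 181 UMIs in Ishikawa and 11 in T-47D. SLC16A3 was the highest of the 4 in T-47D. The glucose carrier SLC2A1 (GLUT1) was also higher in Ishikawa, with 49.9 against 11.2 CPM (4.43-fold (95% interval 3.91 to 5.03)). The sugar carrier SLC50A1 was higher in T-47D, with 132 against 37.6 CPM (3.52-fold (95% interval 3.22 to 3.84)), and was the highest sugar carrier there. In Ishikawa that place was held by the inositol carrier SLC5A3 (57.5 CPM).

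Iron and other metal carriers were led by SLC40A1, the only known exporter of iron from cells. It had 76 UMIs (4.97 CPM) in Ishikawa and 11439 UMIs (345 CPM) in T-47D, 69.4-fold (95% interval 55.4 to 88.2) higher in T-47D. Its level in T-47D stayed between 327 and 346 CPM over the time course. The iron importer SLC11A2 (DMT1) was also higher in T-47D, with 40.3 against 12.5 CPM (3.21-fold (95% interval 2.76 to 3.76)). The copper importer SLC31A1 (34.04 and 37.1 CPM) was within 2-fold. Zinc carriers were split. SLC39A8 (77.5 and 12.5 CPM, 6.21-fold (95% interval 5.55 to 6.96)) and SLC39A10 (83.6 and 15.4 CPM, 5.42-fold (95% interval 4.89 to 6.02)), importers of zinc, were higher in Ishikawa. SLC39A1, a zinc importer of the same family, was higher in T-47D (139.9 against 55.8 CPM, 2.51-fold (95% interval 2.33 to 2.7001)). The importer SLC39A6 (LIV-1), known as an estrogen-regulated gene of breast cancer, had 66.6 and 52.99 CPM and was within 2-fold.

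A further 3 members were seen in 1 line with no UMI at all in the other at 0 h. The phosphate carrier SLC34A2 had 407 UMIs (26.6 CPM) in Ishikawa and none in any T-47D pool. Against the 3 counts that a count of 0 allows in the T-47D pool, it was at least 294-fold higher in Ishikawa. The exact 95% interval of the ratio, which also counts the error in the 407 UMIs, starts at 238-fold. SLC24A3, a sodium and calcium exchanger, had 498 UMIs (15.01 CPM) in T-47D and none in any Ishikawa pool, and SLC49A3 had 433 UMIs (13.1 CPM) in T-47D. By the same bound these were at least 76.6-fold and at least 66.6-fold higher in T-47D, and their exact intervals start at 62.1-fold and 53.9-fold. SLC27A2, an acyl-CoA synthetase that takes up fatty acids, was 42.9-fold (95% interval 27.1 to 72.1) higher in Ishikawa (24.6 and 0.573 CPM). In T-47D the organic anion carrier SLCO3A1 (16.4 against 0.327 CPM), the Golgi CMP-sialic acid carrier SLC35A1 (53.99 against 5.68 CPM), the lysosomal carrier SLC46A3 (22.3 against 1.89 CPM) and SLC22A23 (30.3 against 4.64 CPM) were higher. The fold of these 4 ran from 6.54 for SLC22A23 to 50.2 for SLCO3A1.

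**Figure D2:**
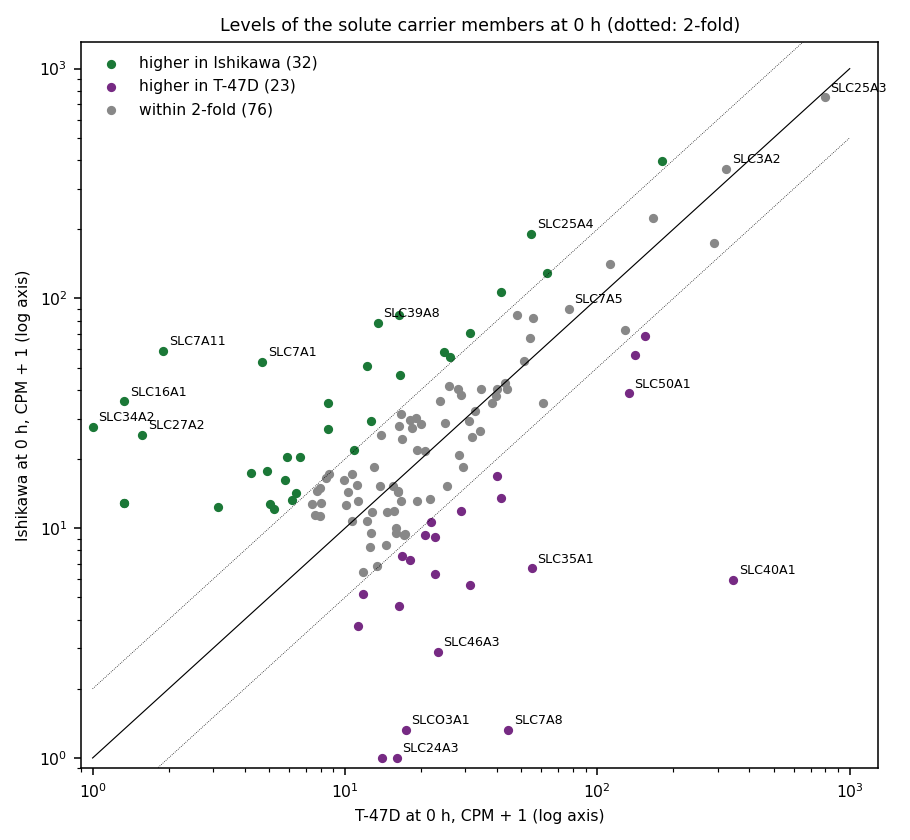
Level of each of the 131 members at 0 h in T-47D (horizontal) and Ishikawa (vertical), as CPM + 1 on log axes, with 1 point per gene, a line of equality and dotted lines at 2-fold. Most members lie along the line of equality (76 within 2-fold), 32 lie above it (green) and 23 below it (purple), counts that become 22 and 33 with TMM factors. SLC7A11, SLC34A2 and SLC16A1 at the left edge and SLC40A1, SLC7A8 and SLC24A3 at the lower right lie far from it.

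The highest member was the same gene in both lines in some of the other classes. SLC35B1 was the highest SLC35 member in both (81.1 and 54.8 CPM at 0 h), and the bicarbonate carrier SLC4A7 was the highest carrier of inorganic ions in both (36.8 and 38.7 CPM). SLC27A5 (28.3 and 29.9 CPM), a bile acid and fatty acid CoA ligase, led the fatty acid class. The chloride carrier SLC12A2 (NKCC1) had 27.3 and 18.9 CPM. Other leaders differed. Among vitamin and choline carriers these were the riboflavin carrier SLC52A2 in Ishikawa (52.4 CPM) and the choline carrier SLC44A1 in T-47D (59.7 CPM). Among nucleoside carriers they were SLC29A1 in Ishikawa (11.7 CPM) and SLC29A2 in T-47D (16.3 CPM), and among carriers of phosphate and sulfate the sulfate carrier SLC26A2 in Ishikawa (45.3 CPM) and the phosphate carrier SLC20A2 in T-47D (22.7 CPM). In the class of peptides, vesicles and lysosome, the acetyl-CoA carrier SLC33A1 led in Ishikawa (20.8 CPM) and the peptide carrier SLC15A4 in T-47D (14.9 CPM).

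After E2, few members changed, and nearly all of those that passed the fold were higher. A gene passed at 1.5-fold or more against 0 h of the same line, on the scale log2((CPM + 1)/(CPM at 0 h + 1)), which understates the change of low genes, with a mean of at least 10 CPM in that line. The 3 later time points of a line share its 0 h culture. In Ishikawa 3 of the 103 members (2.91%) passed as higher at each of 2, 4 and 8 h, beside 0.786%, 0.634% and 0.812% of all 7885 genes tested, and 0 passed as lower, beside 0.659%, 0.621% and 0.469%. In T-47D 5, 4 and 5 of the 101 members (4.95%, 3.96% and 4.95%) passed as higher at 2, 4 and 8 h, beside 1.22%, 1.33% and 2.34% of all 7440 genes. There 0 members passed as lower at 2 h and 4 h and 1 at 8 h, beside 0.417%, 0.363% and 0.726% of all genes. With every called Ishikawa cell, 4, 4 and 1 members passed as higher there and 1, 0 and 0 as lower. The count at 8 h thus rested on the cell filters, and the member left was SLC7A5 (0.60). The share of all genes was not counted under that setting. At any time point 4 members were higher in Ishikawa (SLC7A5, SLC22A5, SLC16A3 and SLC30A1), 3.88% of the members beside 1.15% of all genes tested. In T-47D 8 were (7.92% beside 2.67%), among them SLC7A5, SLC22A5, SLC3A2, SLC20A1, SLC2A1, SLC25A36 and SLC39A4. SLC7A5 and SLC22A5 passed as higher in both lines (2 of 4 in Ishikawa and 2 of 8 in T-47D), 2.74% of the 73 members tested in both beside 0.297% of all 6404 genes tested in both. In T-47D SLC22A5 had 6.78 CPM at 0 h and met the mean of 10 CPM only through its E2 pools. Its call there thus rests in part on how genes were chosen. With a pseudocount of 5 CPM the T-47D changes of SLC22A5 were under the fold, which leaves SLC7A5 alone. The members' median change was 0.02, 0.03 and 0.06 in Ishikawa, against 0.03, -0.01 and 0.02 in T-47D, beside -0.01, -0.01 and 0.00 and 0.01, -0.01 and 0.01 for all genes. Within 0.32 of 0 h on the log2 scale stayed 90.3%, 87.4% and 86.4% of the Ishikawa members and 91.1%, 87.1% and 80.2% in T-47D, against 93.5%, 92.8% and 91.9% and 94.9%, 92.8% and 88.5% of all genes.

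SLC7A5, the LAT1 light chain that imports leucine and other large neutral amino acids, was 1 of the 2 members past the fold in both lines. In Ishikawa its level was 89.2, 122, 153 and 153 CPM (from 1365, 3652, 2960 and 4741 UMIs). In T-47D it was 75.96, 148, 145 and 123 CPM (from 2520, 3921, 4290 and 1595 UMIs). In both lines the 0 h pool was the lowest of the 4 and its interval did not overlap those of the E2 pools. The changes were 0.45, 0.77 and 0.77 in Ishikawa, against 0.95, 0.92 and 0.69 in T-47D on the log2 scale. As a plain ratio, the level at 4 h was 1.71-fold (95% interval 1.61 to 1.83) that at 0 h in Ishikawa and 1.905-fold (95% interval 1.81 to 2.002) in T-47D. Both lines were thus past the fold at 4 and 8 h, and only T-47D was past it at 2 h, a difference between lines that was not tested. With every cell thinned to 1 depth per line, 59.8% (55.96 to 63.5%) of Ishikawa cells had a SLC7A5 UMI at 0 h and 79.6% (77.4 to 81.8%) at 8 h, and in T-47D the shares were 58.5% (55.8 to 61.2%) and 80.2% (77.7 to 82.6%) at 0 and 2 h. Unthinned they were 70.4% and 88.3%, and 68.5% and 86.4%. Each library held 1 line, so no cells that lack the gene gave a background share.

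Its heavy chain SLC3A2 passed the fold only in T-47D and only at 4 h. Its level was 324, 374, 515 and 439.7 CPM in T-47D and 364, 368, 435 and 457 CPM in Ishikawa. The highest T-47D pool was 4 h and the highest Ishikawa pool was 8 h. The change was 0.21, 0.67 and 0.44 in T-47D and 0.02, 0.26 and 0.33 in Ishikawa, and the plain ratio at 4 h was 1.59-fold (95% interval 1.55 to 1.63) and 1.195-fold (95% interval 1.16 to 1.24). The other light chains did not pass. SLC7A11 in Ishikawa had 58.3, 48.2, 55.5 and 55.3 CPM, and SLC7A8 in T-47D had 43.3, 44.6, 41.01 and 34.3 CPM, with its lowest level at 8 h. The summed level of the 16 amino acid carriers was 1103, 1102, 1243 and 1267 CPM in Ishikawa and 813, 964, 1119.6 and 1052 CPM in T-47D. In T-47D all E2 pools were above 0 h, and in Ishikawa the 4 h and 8 h pools were. Most of each of these rises lay in SLC3A2 and SLC7A5 and not in the other amino acid carriers. SLC7A5 had 89.2 CPM at 0 h and 153 CPM at 8 h in Ishikawa, and 76.0 and 145 CPM at 0 and 4 h in T-47D. The glutamine carrier SLC1A5 had changes of 0.17, 0.40 and 0.37 in Ishikawa, against 0.30, 0.35 and 0.28 in T-47D, and SLC38A2, a glutamine carrier induced by amino acid shortage, had -0.52, -0.38 and -0.23 and -0.13, -0.10 and 0.15, none of them past the fold. With every called Ishikawa cell SLC38A2 passed as lower at 2 h.

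SLC22A5 (OCTN2), which imports carnitine for the oxidation of fatty acids, passed in Ishikawa at every time point and in T-47D at 2 and 8 h. Its level was 13.5, 26.7, 26.7 and 23.9 CPM in Ishikawa and 6.78, 12.6, 10.3 and 12.4 CPM in T-47D. In T-47D only the E2 pools were over 10 CPM, so it was tested there through them. All E2 pools of a line were above its 0 h pool. The changes were 0.94, 0.94 and 0.78 in Ishikawa, against 0.81, 0.53 and 0.78 in T-47D. With every called Ishikawa cell the change at 8 h was 0.52, under the fold, and with a pseudocount of 5 CPM the T-47D changes at 2 and 8 h were 0.58 and 0.56, also under it. The plain ratio at 2 h was 1.98-fold (95% interval 1.699 to 2.32) in Ishikawa and 1.86-fold (95% interval 1.57 to 2.21) in T-47D. The counts behind these values were 206, 797, 517 and 741 UMIs and 225, 335, 304 and 160 UMIs. The other organic ion carriers over the minimum did not pass in either line.

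The lactate exporter SLC16A3 passed in Ishikawa at all 3 time points. Its level there was 16.3, 31.9, 30.6 and 25.1 CPM, with 2 h the highest pool. The change was 0.92, 0.87 and 0.59, just past the fold at 8 h, where 5 of 9 alternative settings put it under. In T-47D it was under the minimum, with 3.26, 5.09, 4.25 and 3.87 CPM. SLC16A1 in Ishikawa had 34.6, 37.8, 41.1 and 45.3 CPM and did not pass. The zinc exporter SLC30A1, a target of the metal-sensing factor MTF1, passed in Ishikawa at 2 h, with 13.9, 23.2, 17.97 and 19.6 CPM and a plain ratio at 2 h of 1.67-fold (95% interval 1.43 to 1.95). With a pseudocount of 5 CPM its change at 2 h was 0.58, under the fold. The E2 pools were all above 0 h, and the 2 h pool was the highest.

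In T-47D the phosphate carrier SLC20A1 (PiT-1) passed at every time point. Its level was 12.9, 21.04, 20.4 and 23.1 CPM, with all E2 pools above 0 h and no overlap of intervals. The change was 0.66, 0.62 and 0.79, and with a pseudocount of 5 CPM those at 2 and 4 h were 0.54 and 0.50, under the fold. With cells thinned to 1 depth the change at 4 h was 0.543, also under it. In Ishikawa it had 24.4, 24.2, 24.8 and 26.2 CPM, with 4 pools whose intervals overlapped and changes of -0.01, 0.02 and 0.10. The zinc importer SLC39A4, the gene of the zinc deficiency acrodermatitis enteropathica, had 30.4, 32.8, 40.2 and 52.1 CPM in T-47D and passed at 8 h, the highest of the 4 pools (1.71-fold (95% interval 1.55 to 1.89)). In Ishikawa its level was 69.8, 75.6, 76.3 and 83.8 CPM, and it did not pass. SLC39A6 did not pass in either line, with changes from -0.02 to 0.05 in Ishikawa and from -0.02 to 0.13 in T-47D. The glucose carrier SLC2A1 passed in T-47D at 2 h, with 11.2, 19.1, 14.5 and 14.2 CPM and 1.697-fold (95% interval 1.48 to 1.94) at 2 h, and had 49.9, 53.7, 55.8 and 49.8 CPM in Ishikawa. With a pseudocount of 5 CPM the T-47D change at 2 h was 0.57, under the fold.

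Among the mitochondrial carriers, SLC25A36, a carrier of pyrimidine nucleotides, passed in T-47D at 2 h. It had 33.5, 53.3, 46.3 and 45.9 CPM there, with a change at 2 h of 0.65 and the 2 h pool the highest of the 4. In Ishikawa its changes were 0.45, 0.25 and 0.26, under the fold.

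**Figure D3:**
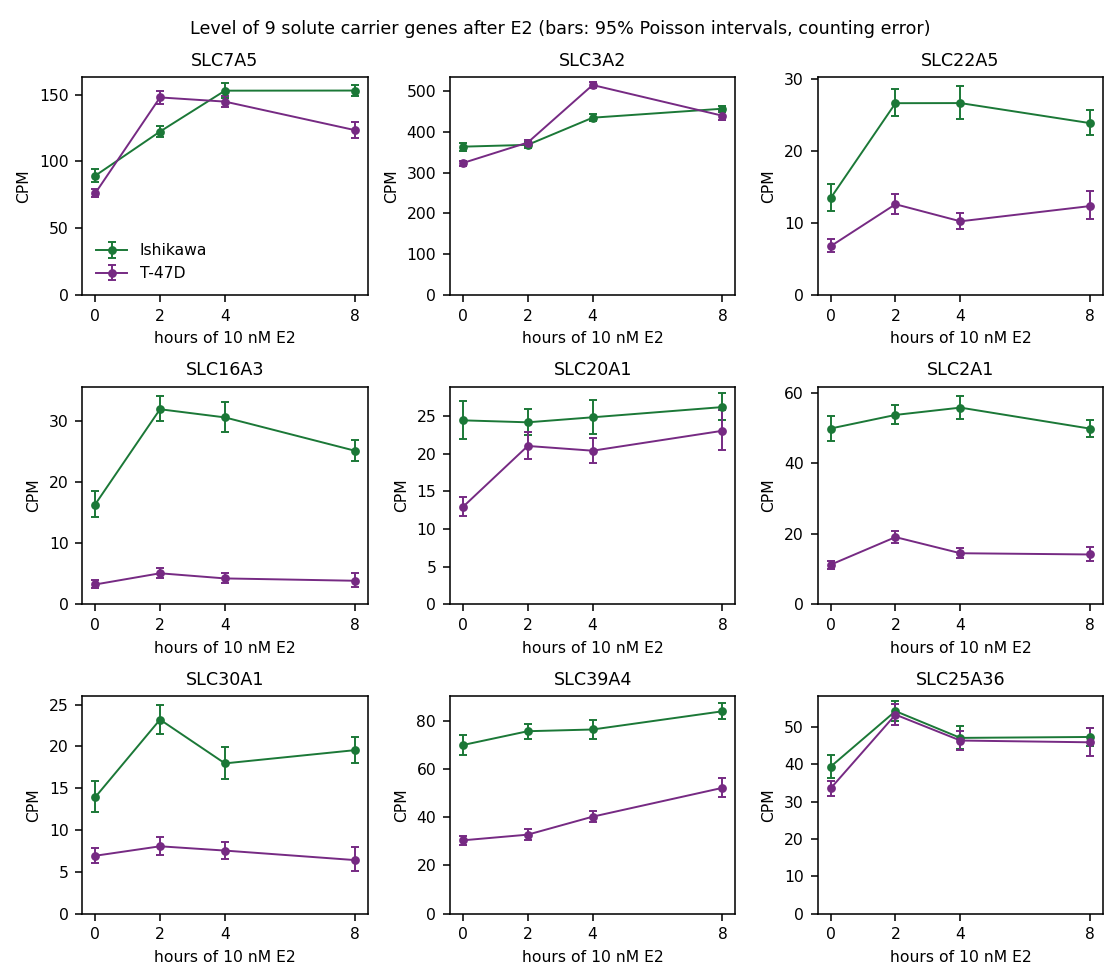
Level in CPM of 9 members against hours of 10 nM E2, with 0 h the vehicle culture, for Ishikawa (green) and T-47D (purple). Points are single pools, bars are 95% Poisson intervals of counting error, and each axis starts at 0. SLC7A5 and SLC22A5 lie above 0 h at every E2 time point in both lines, SLC16A3 and SLC30A1 are raised in Ishikawa, SLC20A1 and SLC39A4 are raised in T-47D, and SLC25A36 is highest at 2 h in T-47D.

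None of the 14 SLC35 members over the minimum in Ishikawa or of the 12 in T-47D passed, and none of the vitamin and choline, fatty acid, nucleoside, or other metal and haem carriers passed in either line. SLC40A1 in T-47D had 345, 327, 342 and 346 CPM, with changes of -0.08, -0.01 and 0.00. The ADP/ATP carriers SLC25A5, SLC25A6 and SLC25A4 stayed within -0.06 and 0.19 of 0 h in both lines. The median of the 24 mitochondrial carriers over the minimum in Ishikawa was 0.02, 0.09 and 0.13 at 2, 4 and 8 h. That of the 23 in T-47D was 0.04, 0.04 and 0.05. At 8 h 19 of 24 (79.2%) were above 0 in Ishikawa, beside 50.3% of all genes over the minimum. In T-47D 13 of 23 (56.5%) were, near the 51.9% of all genes. With every called cell the median over all Ishikawa members turned below 0, and that of this class was not computed. Amino acid carriers had medians of 0.02, 0.15 and 0.07 over 11 members in Ishikawa and 0.07, 0.11 and 0.21 over 12 in T-47D. The chloride carrier SLC12A2 had changes of -0.08, -0.10 and 0.14 in Ishikawa, against -0.18, -0.19 and -0.31 in T-47D. Over the 73 members tested in both lines, the changes at 2, 4 and 8 h gave Pearson's r of 0.57, 0.62 and 0.56 between the lines. Over all 6404 such genes r was 0.24, 0.30 and 0.30. Spearman's rho was 0.28, 0.49 and 0.45 for the members and 0.11, 0.27 and 0.30 for all genes. The change had the same sign in both lines for 41, 48 and 43 of the 73 members. The same count was not made over all 6404 genes, so no agreement beyond the background is read from it. These are descriptions across genes, which are not independent replicates, and the points share each line's library and depth.

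**Figure D4:**
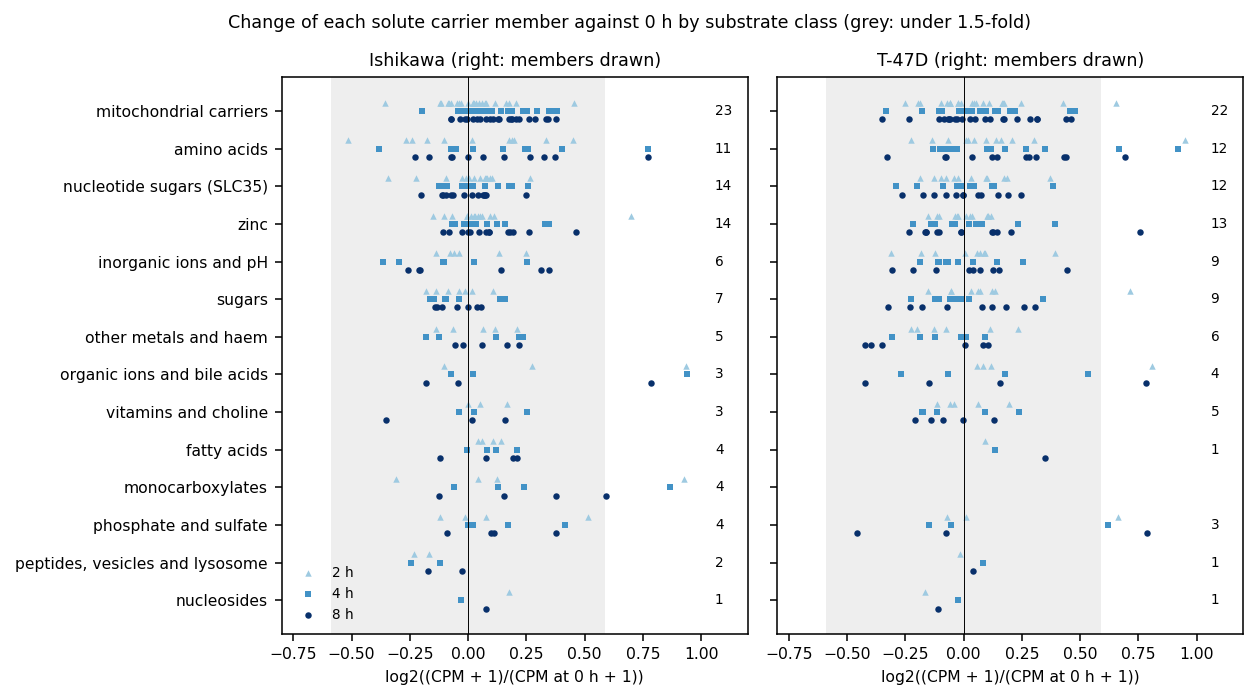
Change of each member over the minimum against 0 h, as log2((CPM + 1)/(CPM at 0 h + 1)), by substrate class in Ishikawa (left) and T-47D (right). Each gene has 1 point each at 2 h (triangles), 4 h (squares) and 8 h (circles), grey marks changes under 1.5-fold and the number at the right is the number of members drawn; SLC49A3 and 2 members not reported here are not drawn. Points outside the grey belong to amino acid, zinc, organic ion and monocarboxylate carriers in Ishikawa, and in T-47D to amino acid, mitochondrial, zinc, organic ion, phosphate and sugar carriers.

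The bases before the start of transcription were read for the members, as the 250 bases upstream of each RefSeq start (GRCh38.p14). A window was found for 112 of the 131 members (171 windows, since some genes have several starts). E2 acts through the estrogen receptor, whose full binding motif is a palindrome of the 5-base GGTCA and its reverse complement with 3 bases between. The full motif was found in 14 of 35116 windows (0.0399%) and in 1 member window (0.585%), that of SLC35B2. GGTCA on either strand was in 32.6% of all windows and 33.3% of member windows, and these matches include those inside the full motif. The E-box CACGTG, which is its own reverse complement and is bound by MYC and related factors, was in 6.34% of all windows and 12.9% of member windows. The core TGATGNAA of the element bound by ATF4, on either strand, was in 3.14% and 1.75%, with matches at SLC1A5, SLC25A11 and SLC27A5. Member windows had a median of 66% G and C bases against 58% in all windows. All windows include those of genes under the minimum of 10 CPM, so members and background were not selected alike. The motifs were picked with the changes known. A match is a run of letters and not a site shown to be bound, and receptor binding far from starts is not covered by these windows.

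The windows of the 2 members past the fold in both lines and of SLC20A1, past it in T-47D at every time point, are printed with that of SLC35B2, the 1 member window with the full motif. They run 5′ to 3′ on the strand of the gene, end at the base before the start, and have matches of the motifs in capitals. They lie at chr16:87869508-87869757 (minus strand) for SLC7A5, chr5:132369460-132369709 (plus strand) for SLC22A5, chr2:112645689-112645938 (plus strand) for SLC20A1 and chr6:44257529-44257778 (minus strand) for SLC35B2.
SLC7A5: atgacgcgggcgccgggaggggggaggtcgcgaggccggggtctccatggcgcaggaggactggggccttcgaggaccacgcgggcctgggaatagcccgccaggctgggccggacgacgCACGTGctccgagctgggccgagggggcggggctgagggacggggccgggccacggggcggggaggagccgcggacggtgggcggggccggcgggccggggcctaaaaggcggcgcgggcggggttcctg
SLC22A5: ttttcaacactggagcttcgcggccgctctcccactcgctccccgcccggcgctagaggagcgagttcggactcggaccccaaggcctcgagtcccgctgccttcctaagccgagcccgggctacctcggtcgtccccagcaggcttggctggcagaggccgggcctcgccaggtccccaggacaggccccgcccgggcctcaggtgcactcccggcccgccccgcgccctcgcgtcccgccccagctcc
SLC20A1: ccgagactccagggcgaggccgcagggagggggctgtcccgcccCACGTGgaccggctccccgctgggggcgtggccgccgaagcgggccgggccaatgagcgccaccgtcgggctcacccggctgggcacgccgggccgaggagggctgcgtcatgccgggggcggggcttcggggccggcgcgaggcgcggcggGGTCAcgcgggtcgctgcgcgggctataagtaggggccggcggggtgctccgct
SLC35B2: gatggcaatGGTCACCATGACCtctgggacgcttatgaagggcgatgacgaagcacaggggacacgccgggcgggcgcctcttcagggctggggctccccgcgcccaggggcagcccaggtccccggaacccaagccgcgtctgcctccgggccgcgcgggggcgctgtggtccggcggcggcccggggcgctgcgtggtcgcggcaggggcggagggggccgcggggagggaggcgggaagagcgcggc
SLC7A5 had 1 E-box, whose first base lay 130 bases before the start, and no GGTCA. SLC22A5 had no match of any of the 4 motifs in this window. SLC20A1 had an E-box 206 bases and a GGTCA 54 bases before the start. SLC35B2, the Golgi carrier of the sulfate donor PAPS, had the full motif 241 bases before this start, and its level was 12.1, 12.8, 12.3 and 12.8 CPM in Ishikawa and 15.6, 16.8, 17.1 and 15.2 CPM in T-47D, with no change past the fold in either line.

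Genes of the same pathways were counted by the same rule, in lists chosen with earlier results of these data known. At a single time point, 0.634% to 0.812% of all genes passed as higher in Ishikawa and 1.22% to 2.34% in T-47D. As lower, 0.469% to 0.659% and 0.363% to 0.726% passed. The lists are short, and no excess over these shares was tested. Of the amino acid response list (targets of ATF4 and its partners, 21 genes, 19 over the minimum in Ishikawa and 15 in T-47D), 1 gene passed as lower in Ishikawa, TRIB3 at 2 h (-0.61), and 1 as higher in T-47D, STC2 at every time point. STC2, a secreted glycoprotein, had 27.3, 78.5, 95.5 and 105 CPM in T-47D. ATF4 itself had 189.7, 191, 197 and 181 CPM in Ishikawa and 54.95, 70.2, 66.2 and 58.01 CPM in T-47D, under the fold. The lowest of the list at 8 h was NUPR1 in both lines (-0.36 and -0.53). Of 23 transporter partners, scaffold and trafficking proteins of carriers, 18 were over the minimum in Ishikawa and 15 in T-47D. Among them SLC9A3R1 (NHERF1) was the 1 gene past the fold. It had 75.8, 141, 137 and 106 CPM in Ishikawa and 211, 407, 452 and 525 CPM in T-47D, past the fold at 2 and 4 h in Ishikawa and at every time point in T-47D. NEDD4L was the lowest of that list at 8 h (-0.29 in Ishikawa and -0.36 in T-47D).

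Of 18 genes of glucose and lactate handling, 14 and 13 were over the minimum and 0 passed in either line. Their ends at 8 h were LDHA (0.40) and PKM (-0.13) in Ishikawa and HK1 (0.42) and GAPDH (-0.21) in T-47D. Of 14 genes of iron handling, 10 were over the minimum in Ishikawa. Of these NCOA4, the receptor for the breakdown of ferritin, passed as higher at 4 and 8 h, with 42.5, 58.8, 72.9 and 66.1 CPM. FBXL5 was the lowest there at 8 h (-0.24). None of the 12 iron genes over the minimum in T-47D passed, with TFRC (0.49) the highest and CYBRD1 (-0.42) the lowest at 8 h. Of the 10 genes of zinc handling, 4 were over the minimum in Ishikawa and 5 in T-47D. The metallothioneins MT1F, MT1X and MT2A, which bind zinc and copper, passed as lower in T-47D at 8 h (-0.92, -1.10 and -0.86). The calcium and zinc binding S100A8 passed as lower there at 2 h (-1.02) and 4 h (-1.15). In T-47D at 8 h the list ran up to S100A9 (-0.08). In Ishikawa 0 zinc genes passed, and their changes at 8 h ran from -0.43 for MT1F to 0.05 for MTF1.

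Variation between cells was measured in the 0 h cultures as the ratio of SD to mean (the coefficient of variation, CV) of each gene's UMIs per 10000. The CV falls with the mean, so genes were ranked by the residual of log2(CV + 1) from a smooth curve on the mean, and the top and bottom 20% in each of 10 bins of mean level were named High and Low noise. In Ishikawa 20 of 103 members (19.4%) were High and 22 (21.4%) Low, and in T-47D 18 of 101 (17.8%) were High and 22 (21.8%) Low, beside 20% of all genes in each class by its construction. The members as a whole were thus near the background, with a median percentile within their bins of 47.6 in Ishikawa and 47.2 in T-47D. Of the 73 members classed in both lines, 14 were High in Ishikawa and 13 in T-47D, and 6 were High in both (6 of 14 and 6 of 13), which is 8.22% of the 73 beside 8.71% of all 6404 genes classed in both and so near the background. The 6 were SLC3A2, SLC7A5, SLC4A7, SLC26A2, SLC39A8 and SLC11A2.

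In Ishikawa the highest residuals were those of SLC34A2 (0.32), SLC7A11 (0.24) and SLC38A2 (0.24). SLC34A2 had a CV of 2.27 at 26.6 CPM and a UMI in 28.9% of the 776 cells. SLC7A11 had a CV of 1.52 at 58.3 CPM. The lowest residuals were those of the Golgi and endoplasmic reticulum carriers SLC35B3 (-0.11) and SLC35B1 (-0.10) and of the magnesium carrier SLC41A1 (-0.09). In T-47D the highest were SLC3A2 (0.24), SLCO3A1 (0.17) and SLC7A5 (0.15), and the lowest were SLC25A3 (-0.07), SLC10A3 (-0.07) and SLC7A6 (-0.07). SLC3A2 had a CV of 0.818 in T-47D at 324 CPM, and SLC25A3 a CV of 0.367 at 794 CPM with a UMI in every cell. Within its bin of mean level SLC25A3 was at percentile 28.3, so its class was Medium and not Low. The residual ranks of the 73 shared members had Spearman's rho of 0.42 between the lines, a description across genes.

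**Figure D5:**
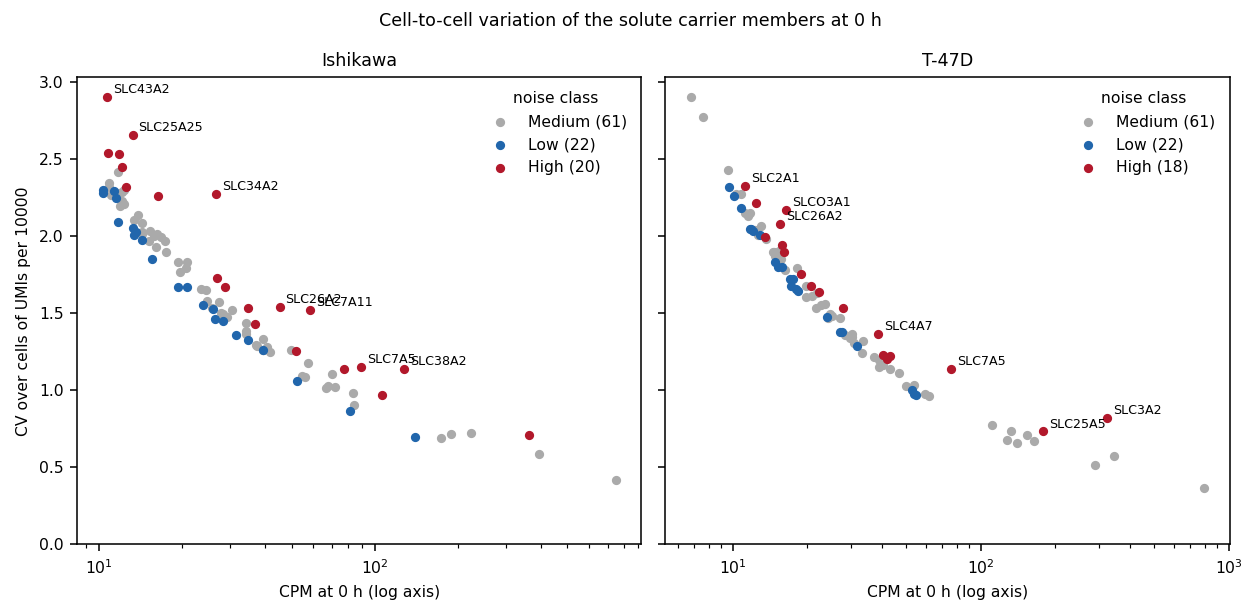
CV over single cells of UMIs per 10000 against the level in CPM (log axis) at 0 h for the 103 members over the minimum in Ishikawa (left) and the 101 in T-47D (right). Colors mark the High (red), Low (blue) and Medium (grey) noise classes, set against all genes of the same level, and the 7 members with the highest residual of each line are named. The CV falls with the level, and SLC34A2, SLC7A11 and SLC38A2 in Ishikawa and SLC3A2, SLC7A5 and SLCO3A1 in T-47D stand above members of like level.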

How the data were processed

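The members, gene lists and motifs were chosen with earlier results of these data known. The deposited matrices hold UMI counts per gene and cell, made by the authors with Cell Ranger 3.1.0, and hg38 is the build named in the submitters' processing notes. A deposited table gives the authors' call of each barcode to a time point or as a doublet. Of 14985 Ishikawa barcodes 9077 were called to 1 time point, 1906 were doublets and 4002 had no call; of 18188 in T-47D these were 4626, 1442 and 12120. No further doublet caller was run. Called cells were kept with UMIs between 8500 and 35000, genes between 2700 and 6000 and a mitochondrial share under 7% in Ishikawa (4613 cells), and in T-47D (4626 cells) with UMIs between 7500 and 40000, genes between 1500 and 6000 and a share under 20%, the limits of the study's methods. These limits removed no called T-47D cell, since the lowest had 10004 UMIs and 3002 genes, so the T-47D calls had been restricted further than the stated limits and the lines were not filtered alike. The key of tag sequences was not used.

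UMI counts were summed per pool, scaled to CPM and compared with a pseudocount of 1 CPM. Plain ratios have exact intervals without the pseudocount. Noise curves were fitted with mgcv 1.9.3 in R 4.3.3, and TMM and median-of-ratios factors used edgeR 4.0.16 for scaling alone. The fold and noise steps were checked on simulated data. Alternatives covered scaling, pseudocount, minimum, fold, cell limits, proliferating cells, GFP and depth. Genes named are a standing list of carriers, those past the fold, the 8 largest line differences each way, the 5 highest members, class leaders, and noise and list extremes; others were named after their values were seen. The single values of 2 members are not reported here.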

Additional observations from a re-analysis of the deposited data

How the results depend on the processing

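No paired analysis was possible because each line and time point was 1 culture and no result comes from a test. The count of members past the fold moved mostly with the limits themselves. The share of all genes past the fold was not counted under the alternatives. The counts below thus do not show whether members passed more often than all genes there. For Ishikawa at 2, 4 and 8 h (3 each) it was 5, 6 and 6 with a minimum of 5 CPM, 10, 13 and 14 at a fold of 0.32 on the log2 scale, 0 each at 2-fold, and 6, 7 and 5 in cells with no TOP2A or MKI67 UMI. With every called Ishikawa cell it was 5 at 2 h and 1 at 8 h. For T-47D (5, 4 and 6) it was 2, 2 and 3 with a pseudocount of 5 CPM, 2 each with a minimum of 20 CPM, 9, 13 and 20 at that smaller fold and 0 each at 2-fold. It was 2 at 4 h with thinned cells. Members higher in Ishikawa at 0 h (32) became 21 with a minimum of 20 CPM and 12 at 4-fold, and those higher in T-47D (23) became 14, 37 at 1.5-fold and 8 at 4-fold. Except where a fold, minimum, cell set or pseudocount was changed by construction, the cause was not tested. High and Low noise counts stayed within 1.5 times under the alternatives run. The members' median change in Ishikawa at 2, 4 and 8 h turned to -0.06, -0.05 and -0.04 with every called cell. SLC7A5 kept every call under all settings of scaling, pseudocount and cells.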

Other observations

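Some carriers under the minimum of 10 CPM were past 1.5-fold in their line, and their values rest on few UMIs. SLC47A2, an exporter of organic cations and no member, had 4.57, 14.7, 10.1 and 7.87 CPM in Ishikawa (from 70, 438, 196 and 244 UMIs), with a change of 1.49 at 2 h. The taurine carrier SLC6A6, no member either, was past 1.5-fold at 2 h in both lines, with 3.14, 5.39, 6.77 and 6.49 CPM in Ishikawa and 6.12, 9.99, 7.69 and 8.35 CPM in T-47D. SLC6A12, a betaine and GABA carrier, had 17, 107, 52 and 76 UMIs in Ishikawa at 0, 2, 4 and 8 h. The prostaglandin carrier SLCO2A1 had 31, 80, 45 and 128 UMIs there, and SLC25A22 and SLC10A7 had 108, 300, 189 and 369 and 65, 141, 135 and 169 UMIs. The cationic amino acid carrier SLC7A1, a member through Ishikawa, had 3.71, 5.77, 7.39 and 8.43 CPM in T-47D (from 123, 153, 219 and 109 UMIs), and its change reached 1.00 at 8 h. SLC35G1 in T-47D had 4.91, 6.11, 7.02 and 8.28 CPM. These genes were named after their values were seen.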
